A study of Homo sapiens with 6 samples.

Results

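The keratin genes and the keratin-associated protein (KRTAP) genes were followed in HCT116 cells (a human colorectal carcinoma cell line, long established) with and without oxaliplatin, a platinum drug that binds DNA. Members were chosen by name: every row whose symbol was KRT followed by a number, with or without a letter from A to C, or KRTAP followed by a number, with pseudogenes left out. This took 149 of 27942 genes, 55 keratin genes and 94 KRTAP genes. RNA was sequenced from 3 libraries of cells that received no drug (NT1, NT2 and NT3) and 3 libraries of cells exposed to 0.5 µM oxaliplatin (OXA1, OXA2 and OXA3), all collected at 24 h. All 6 libraries come from 1 cell line, so the groups differ by the drug and by nothing else in the labels. The labels do not say whether the replicates were separate cultures, and p-values here measure only the spread between these libraries, which may be technical.

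Keratins are the intermediate filament proteins of epithelial cells. A filament is built from pairs of an acidic type I and a neutral to basic type II keratin, so epithelia express the 2 types together. Simple epithelia such as the gut lining use the pairs around KRT8 and KRT18, with KRT19, KRT20 and KRT7 added in some tissues, whereas stratified epithelia, the inner root sheath and the hair shaft each have keratins of their own. Keratin-associated proteins are small proteins, rich in cysteine or in glycine and tyrosine, that crosslink the keratin filaments of hair. In the human genome the type II genes and KRT18 lie in a cluster on chromosome 12, and the other type I genes lie on chromosome 17, with a large block of KRTAP genes among them.

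Library totals lay between 32979521 and 40967880 counts, and members took 0.179% to 0.386% of a library. The label of the cells was checked against marker genes: EPCAM, an epithelial surface protein, had 8451 to 10828 raw counts per library. The 6 epithelial markers (EPCAM, CDH1, CLDN4, ESRP1, KRT8 and KRT18) summed to 80381 to 103879 counts in NT and 103218 to 124376 in OXA. KRT8 and KRT18, members themselves, held most of each sum, so the sum is no separate check. Log2 fold changes of OXA over NT were -0.040 for EPCAM, -0.20 for CDH1, -0.42 for ESRP1 and 0.49 for CLDN4. The 4 cornified keratinocyte markers were at 0 in every library for LOR and KRT1, at 3 counts or fewer for IVL, and between 480 and 782 for KRT10. The 3 blood markers PTPRC, CD3E and HBB summed to 0 to 2 counts, the 2 endothelial markers to 3 to 9, and the 3 fibroblast markers to 114 to 280, of which COL1A1 held 107 to 273. NT1 stood low for these genes, though not for these alone. It was the lowest NT library in 10 of the 13 members tested, against 42.9% of all genes tested, and results are therefore also given without it where they move.

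Most members were not detected. At 0 in all 6 libraries were 94 of the 149, namely 20 keratin genes and 74 KRTAP genes, and a count of 0 allows up to 3 counts in a library. Of the 55 that were detected, 29 never went over 3 counts and 26 did. The filter on low counts (a count of about 10 in 3 libraries, as edgeR sets it) left 13 to be tested, 12 keratin genes and KRTAP2-3. All 5 simple epithelial keratins were tested. So were 5 of the 23 epithelial keratins of other, mostly stratified, epithelia, 1 of the 17 hair keratins, none of the 9 inner root sheath keratins (7 at 0 in all libraries, 2 never over 3 counts), and KRT222, a keratin-like gene of the chromosome 17 cluster. Among the KRTAP genes, 47 of the 49 on chromosome 21 and 21 of the 34 on chromosome 17 were at 0 in all libraries, as were 6 of the 11 on chromosome 11.

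OXA was compared with NT to find which of these genes differed after the drug. Of the 13 tested members, KRTAP2-3, KRT32, KRT15 and KRT80 were higher and none was lower (edgeR quasi-likelihood test, adjusted p under 0.05 over 13727 genes). KRT32 passed the filter on low counts through its OXA libraries alone. Over all genes tested, 2.78% were called higher and 2.29% lower. At an unadjusted p under 0.05, 8 members were higher and 0 lower by edgeR. DESeq2 called 5 higher (KRTAP2-3, KRT15, KRT80, KRT19 and KRT7), with no adjusted p for KRT32. The 4 that limma-voom called higher were those of edgeR, and both tools called 0 lower. Shares of all genes are not given for an unadjusted p, DESeq2 or limma-voom, so nothing is read from these counts. The median log2 fold change of the 13 was 0.47, against 0.023 over all genes tested, with 11 estimates above 0 and 2 below (53.3% of all genes tested were above 0). Libraries that share a replicate number shared deviations across genes, and edgeR with a block for that number (the replicate block) called 8 members higher, adding KRT19, KRT7, KRT8 and KRT18, and 0 lower. With the block, 12.1% of all genes tested were called higher and 10.9% lower. Of the 6 epithelial markers edgeR called 0 without the block (2 higher and 1 lower at an unadjusted p under 0.05, and 1 lower by DESeq2), and with it 3 higher, CLDN4 beside KRT8 and KRT18, and 2 lower, CDH1 and ESRP1. In 8 of the 13 tested members the lowest OXA library exceeded the highest NT library, as it did in 14.5% of all genes tested. These were the 8 called with the block, and the call and the separation come from the same 6 libraries. KRT20 was the reverse, with every OXA library under every NT library, as in 14.4% of genes tested.

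**Figure D1:**
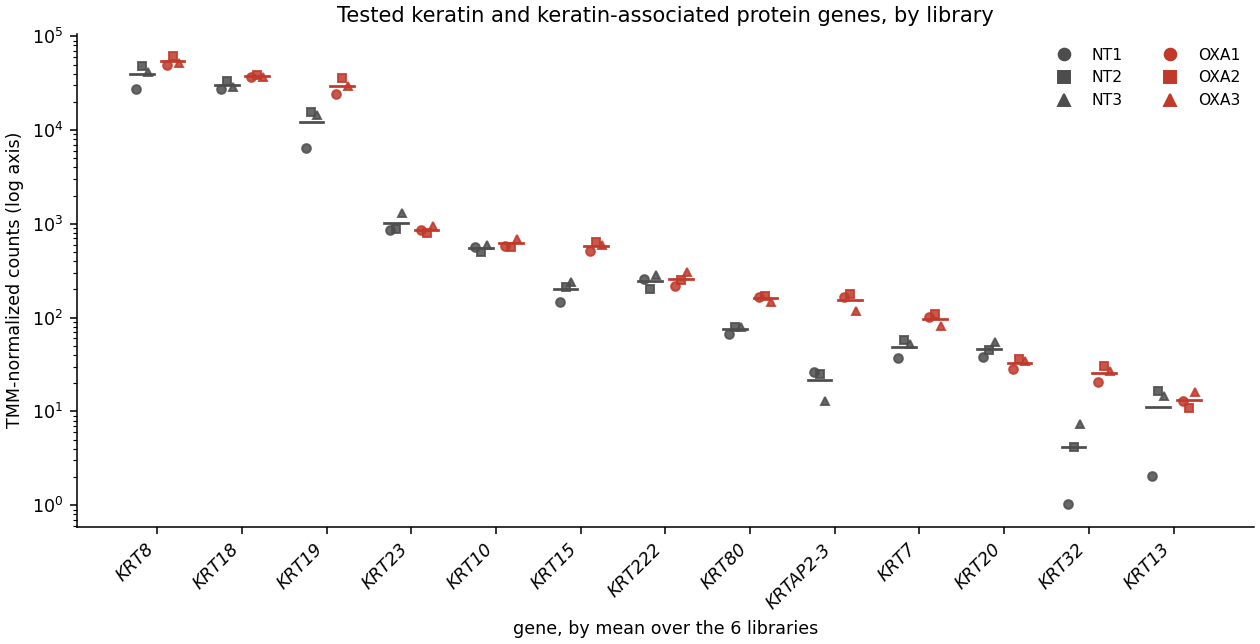
TMM-normalized counts on a log axis for the 13 tested members, ordered by mean over the 6 libraries (grey, NT; red, OXA; circle, square and triangle, libraries 1, 2 and 3; bar, group mean). KRT8, KRT18 and KRT19 sit at the top, NT1 is low for KRT19, KRT32 and KRT13, and the red points lie clear of the grey ones in 8 genes.

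**Figure D2:**
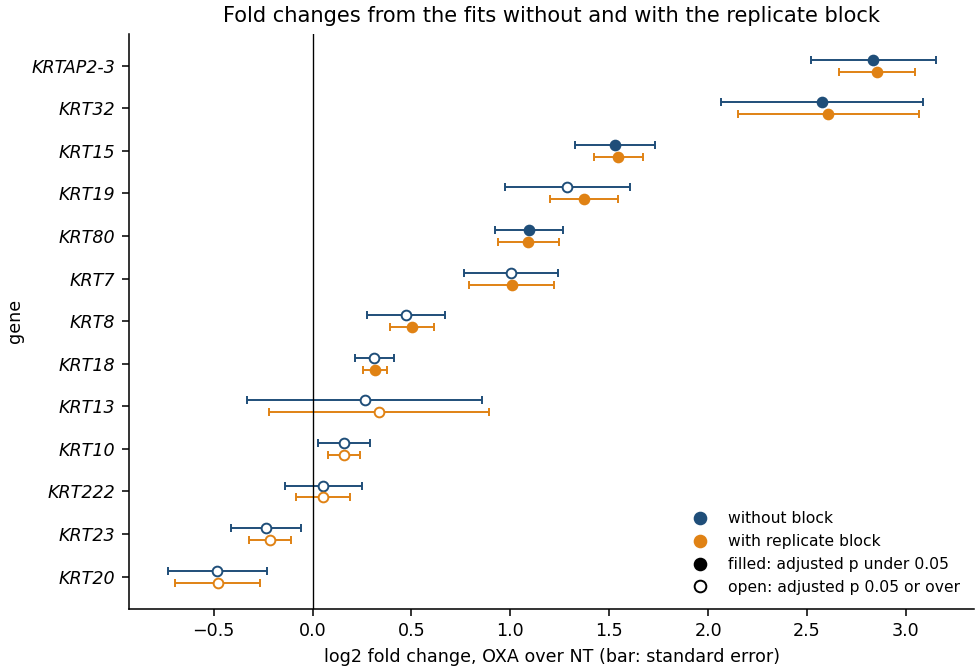
Log2 fold changes of OXA over NT with standard errors for the 13 tested members, from the fits without (blue) and with (orange) the replicate block; filled points have an adjusted p under 0.05. The 2 fits gave close estimates, from -0.48 for KRT20 to 2.84 for KRTAP2-3 without the block, and the bars are shorter with the block.

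The simple epithelial keratins made up nearly all keratin mRNA. KRT8 (chr12:52897187-52949954 on GRCh38, minus strand), the type II keratin of simple epithelia, had 27627, 47958 and 41962 TMM-normalized counts in NT1 to NT3 and 49676, 61780 and 51750 in OXA1 to OXA3. The groups did not overlap, but NT1 lay far under the other two NT libraries. The estimate for KRT8 was 0.47 ± 0.20 (fold change on the log2 scale with its standard error, edgeR adjusted p = 0.218), and 0.28 without NT1. With the replicate block the edgeR adjusted p was 0.0271. In what follows, ± after a log2 value is its standard error. In the annotation, 7.12% of the 100-base windows of the KRT8 transcript also occur in transcripts of other genes, led by the pseudogenes KRT8P3, KRT8P33 and KRT8P45, so its count depends in part on how shared reads were assigned.

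KRT18 (chr12:52948871-52952906, plus strand), the type I partner of KRT8, moved least of the 8. Its normalized counts were 27707, 33638 and 29087 in NT and 37154, 38446 and 36648 in OXA. All OXA libraries were above all NT libraries, with a narrow spread in OXA. Its log2 fold change, 0.31 ± 0.098, had an edgeR adjusted p of 0.115, and of 0.0184 with the replicate block. KRT8 and KRT18 overlap on opposite strands in the annotation. The library kit keeps the strand, and the strand setting of the counting is not given in the sources used here.

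KRT19 (chr17:41523617-41528308, minus strand), the smallest keratin and a type I keratin of simple epithelia that lacks a tail domain, differed most among the abundant ones. Its normalized counts were 6427, 15687 and 14546 in NT1 to NT3 and 24380, 35643 and 29482 in OXA1 to OXA3. Each OXA library was above the NT library of the same number by 1.92, 1.18 and 1.02 on the log2 scale, the widest gap being that of the pair with the low NT1. The estimate was a 2.44-fold difference whose edgeR adjusted p of 0.0616 missed the threshold without the block and was 0.00673 with it. DESeq2 without a block gave an adjusted p of 0.000116 and limma-voom 0.0599. Without NT1 the log2 fold change was 0.98, and the edgeR adjusted p was 0.00526. Leaving out each of the other 5 libraries gave log2 fold changes of 1.14 to 1.48 and edgeR adjusted p-values of 0.0834 to 0.208.

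KRT7 (chr12:52232520-52252186, plus strand), a type II keratin of ducts and glands that colon epithelium mostly lacks, was low. It had 36.8, 57.2 and 52.0 normalized counts in NT and 103, 109 and 82.0 in OXA, a doubling with no overlap between the groups. The log2 difference of 1.00 ± 0.24 had an edgeR adjusted p of 0.0563 without the block, of 0.0249 under the replicate block and 0.0337 by DESeq2. The authors' gene-specific normalization shifted KRT7 to 46.9, 75.1 and 39.9 in NT and to 140, 101 and 63.1 in OXA. On those values the groups overlapped, with OXA3 under NT2. With those factors the edgeR adjusted p was 0.234, or 0.0675 with the block added. KRT20, a type I keratin of differentiated intestinal epithelium, had 37.8, 44.7 and 55.7 normalized counts in NT and 28.1, 36.0 and 34.7 in OXA. Its OXA libraries were all under its NT libraries, by a margin of 37.8 against 36.0 at the nearest, and its edgeR adjusted p was 0.319.

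Levels of different genes were compared per length, as TMM-normalized CPM (counts scaled to the size of the library) per kilobase of the gene's canonical transcript. On this scale KRT8, KRT18 and KRT19 together held 97.8% to 98.6% of all keratin mRNA in every library. KRT8 stood at 610 ± 163 in NT and 848 ± 101 in OXA (mean ± SD, n = 3), KRT18 at 593 ± 61.0 and 736 ± 18.2, and KRT19 at 244 ± 101 and 597 ± 113. In NT, KRT8 and KRT18 lay within each other's spread and KRT19 lay under both. KRT23, a type I keratin, came next at 12.8 ± 3.20 and 10.9 ± 0.835, followed in OXA by KRT15 at 9.46 ± 1.01 and KRT10 at 8.02 ± 0.885. In OXA the libraries of KRT23 overlapped those of KRT15, and the libraries of KRT15 those of KRT10.

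KRT19 held a larger part of the type I pool in every OXA library than in any NT library. It made up 18.4%, 31.4% and 32.5% of type I keratin mRNA per length in NT1 to NT3 and 39.0%, 47.5% and 43.8% in OXA1 to OXA3. All OXA libraries were above all NT libraries, by 16.0 percentage points on average and by 11.5 points without NT1 (exact two-sided permutation test, p = 0.1, the smallest that 3 against 3 can give). KRT18 went the other way as a share, from 63.9% to 78.1% of the type I pool in NT to 50.4% to 58.5% in OXA, although its own level was not lower. KRT8 held 99.6% to 99.8% of the type II pool in every library.

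The summed keratin level was 1772, 2760 and 2453 CPM in NT1 to NT3 and 3162, 3851 and 3357 in OXA1 to OXA3. The difference was 0.59 on the log2 scale, 0.40 without NT1, with no overlap between groups (exact two-sided permutation test, p = 0.1, again the smallest possible). The ratio of type I to type II keratin mRNA per length was 1.62, 1.34 and 1.37 in NT and 1.61, 1.55 and 1.66 in OXA. Those groups overlapped through NT1, and the ratio differed by 0.17 on the log2 scale (exact two-sided permutation test, p = 0.3), or by 0.25 without NT1. In bulk RNA, more cells expressing a keratin and more keratin mRNA per cell cannot be told apart.

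**Figure D3:**
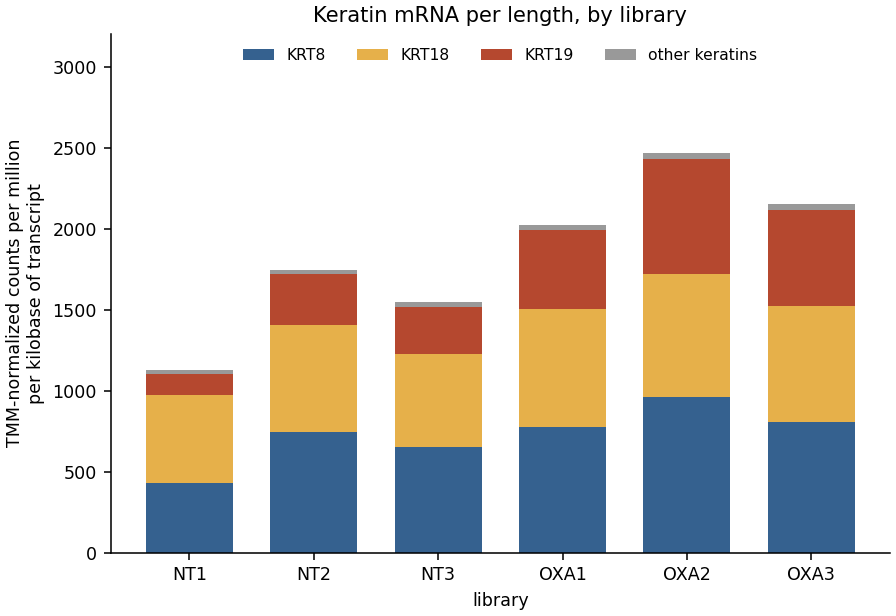
Stacked TMM-normalized CPM per kilobase of transcript for KRT8 (blue), KRT18 (yellow), KRT19 (red) and all other keratins (grey) in each library. The 3 OXA bars are taller than the 3 NT bars, the red part is the one that widens most, and NT1 has the smallest red part.

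Of the epithelial keratins outside the simple group, KRT15 and KRT80 rose. KRT15 (chr17:41513745-41522529, minus strand), a type I keratin of basal keratinocytes and of the hair follicle bulge, lies 1087 bases from KRT19 on the same strand. Its raw counts were 145, 206 and 266 in NT and 475, 582 and 673 in OXA. After TMM normalization these were 148, 214 and 243 against 514, 635 and 600, so the lowest OXA library was over 2 times the highest NT library. This is 1.53 ± 0.20 on the log2 scale (edgeR adjusted p = 0.00908). With the authors' factors, which raised NT1 from 145 to 214, it was 1.25 and the edgeR adjusted p was 0.00576. Without OXA2 or OXA3 it was 1.46 or 1.48, and the edgeR adjusted p of 0.0508 or 0.0518 just missed the threshold.

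KRT80 (chr12:52168996-52192014, minus strand), a type II epithelial keratin, had normalized counts of 67.5, 80.0 and 80.3 in NT and of 168, 171 and 148 in OXA. No OXA library came near the NT range, and the log2 difference was 1.09 ± 0.17 (edgeR adjusted p = 0.0155). Leaving out any library other than NT1 kept the log2 fold change between 1.05 and 1.13 but gave edgeR adjusted p-values of 0.0534 to 0.0942. Without NT1 the adjusted p was 0.0144 by the same edgeR test.

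The remaining tested keratins did not pass in either fit. KRT10, the type I keratin of differentiating epidermis, ranged from 480 to 659 raw counts across NT libraries and from 524 to 782 across OXA libraries (estimate 0.16, log2, and 0.059 without NT2 or 0.034 without OXA3). KRT23 ranged from 841 to 1440 and from 741 to 1053 (estimate -0.24, and -0.045 without NT3). KRT222 ranged from 196 to 314 and from 200 to 347 (estimate 0.055), and 35.0% of its transcript windows are shared with an overlapping readthrough gene on the same strand. KRT13, a type I keratin of non-cornifying stratified epithelia, had raw counts of 2, 16 and 16 in the NT libraries against 12, 10 and 18 in OXA. Its estimate was 0.26, but -0.22 without NT1 and 1.11 with the authors' gene-specific factors (edgeR adjusted p = 0.458). Groups overlapped in all 4, with edgeR adjusted p-values between 0.493 and 0.904.

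Among the 13 tested members the 2 hair genes held the largest fold changes. KRTAP2-3 (chr17:41059240-41060114, minus strand), which encodes a cysteine-rich protein of the hair shaft, had 26, 24 and 14 raw counts in NT1 to NT3 and 152, 162 and 132 in OXA1 to OXA3. The lowest OXA library was several times the highest NT library. The fold was 7.14 (2.84 ± 0.32 on the log2 scale, edgeR adjusted p = 0.00489), and the gene passed in each of the 6 fits that left out 1 library, with edgeR adjusted p-values of 0.00149 to 0.0365. Its near copies were hardly seen: KRTAP2-4 had 1 count in all libraries together, KRTAP2-1 had 0 to 2 per library and KRTAP2-2 1 to 8. Since 34.0% of the 100-base windows of KRTAP2-3 are shared with these 3 genes, how reads were split within the family is uncertain.

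KRT32 (chr17:41459513-41467386, minus strand), a type I keratin of the hair cuticle, had raw counts of 1, 4 and 8 in the NT libraries against 19, 28 and 30 in OXA. Even its highest NT library was under its lowest OXA library. KRT32 passed the filter on low counts through its OXA libraries alone, so its p-values are given as a description. On the log2 scale OXA was 2.58 ± 0.51 higher (edgeR adjusted p = 0.0340). Without NT1 it was 2.14 (edgeR adjusted p = 0.0243), and without any 1 of NT2, NT3, OXA1, OXA2 and OXA3 the edgeR adjusted p was 0.0590 to 0.135. DESeq2 gave KRT32 no adjusted p. None of the 100-base windows of KRT32 occurs in another gene's transcript, and the same held for KRT15, KRT19, KRT7, KRT18 and KRT80.

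The upstream sequences of KRTAP2-3 and KRT32 are shown because these genes had the 2 largest fold changes of the 13 tested members. Each is the 250 bases before the start site in RefSeq (GRCh38.p14, minus strand, written 5′ to 3′ in the direction of transcription), at chr17:41060115-41060364 for KRTAP2-3 and chr17:41467387-41467636 for KRT32. Capitals mark TATAAA, the core of a TATA box.
KRTAP2-3: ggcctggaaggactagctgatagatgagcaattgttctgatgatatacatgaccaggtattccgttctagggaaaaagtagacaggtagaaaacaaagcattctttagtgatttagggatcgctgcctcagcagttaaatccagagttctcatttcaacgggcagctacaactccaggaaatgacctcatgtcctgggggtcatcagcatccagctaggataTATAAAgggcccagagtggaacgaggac
KRT32: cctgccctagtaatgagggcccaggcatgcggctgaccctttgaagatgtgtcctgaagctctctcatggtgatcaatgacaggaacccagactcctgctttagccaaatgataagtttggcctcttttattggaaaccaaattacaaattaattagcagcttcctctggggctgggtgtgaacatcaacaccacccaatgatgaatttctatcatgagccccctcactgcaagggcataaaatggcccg
KRTAP2-3 had TATAAA beginning 28 bases before its start and KRT32 had none. Their GC content was 46.0% and 48.0%.

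RefSeq promoters were found for 114 of the 149 members, in 118 entries, of which 5 were tested genes (KRT8, KRT10, KRT20, KRT32 and KRTAP2-3). On either strand of the 250 upstream bases, TATAAA was present in 84 of the 118 (71.2%), 21 of 38 keratin and 63 of 80 KRTAP entries, against 10.7% of 35116 promoters. Members of a family share sequence, so these entries are not independent. The TEAD motif GGAATG was in 15 of the 118, against 11.9% of all promoters, the AP-1 motif TGANTCA was in 7, against 6.57%, and the Sp1 motif GGGCGG in 5, against 42.6%. The grainyhead motif AACNNGTT was in 4, against 3% of all promoters. A p53 response element, searched only as an exact pair of half-sites with no spacer, was in 0 of the 118, against 0.0171% of all promoters. At so low a share a count of 0 says nothing about whether members have p53 elements. A single p53 half-site was in 15, against 5.57%, among them KRT8, KRT10 and KRT20. The KRT8 window (chr12:52926470-52926719) lies inside the annotated span of KRT8, so it belongs to a start site within the gene. In the windows of KRTAP2-3 and KRT32 none of these motifs other than TATAAA was found. These are matches of letters only.

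Members under the filter were described by their raw counts. Of the 13 untested members that went over 3 counts, 8 had every OXA library above every NT library after TMM normalization and 0 had the reverse, against 8.16% and 5.35% of all 2354 genes under the filter with a count over 3. Of those 8, 6 went over 3 counts in OXA libraries only, so that the limit on counts itself favoured separated groups, and nothing is read from the count of 8. The 8 are named for this separation and their counts are a description. KRT16, a type I keratin induced in wounded and hyperproliferative epidermis, had 1, 1 and 1 counts in NT and 12, 10 and 9 in OXA. KRT17, which lies beside it and is a keratin of the same setting, had 1, 3 and 0 against 9, 13 and 9. KRT6A, the type II partner of KRT16, had 0, 1 and 0 against 2, 7 and 6. All 3 were present at trace level and were counted mostly in OXA.

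Among low hair genes, KRT37 was at 0 in all NT libraries and at 2, 3 and 5 in OXA. KRT31 had 1, 0 and 2 counts against 5, 2 and 3. The 3 KRTAP genes of chromosome 17 in this group were KRTAP3-1 with 3, 1 and 4 against 8, 11 and 9 counts, KRTAP2-2 with 1, 4 and 2 against 4, 8 and 7, and KRTAP4-7 with 0, 1 and 0 against 3, 6 and 3. KRTAP2-2 and KRT31 have tied raw counts and separate only after normalization. Reads without molecular identifiers are not independent molecules, so counts this low are less certain than counting error alone would make them.

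With no filter beyond 1 count, the estimate for KRT16 was 3.24 on the log2 scale, with an edgeR adjusted p of 0.0264. That estimate stands on 1 count in each NT library. The other 7 low genes had edgeR adjusted p-values of 0.0874 to 0.467 in that fit. Because these genes were picked for their separated groups, their p-values are given as a description and support nothing. In the same fit KRT19 had an edgeR adjusted p of 0.0402. Copies share sequence here too: 46.5% of the windows of KRTAP2-2, 18.2% of those of KRT6A and 7.12% of those of KRT16 occur in transcripts of other genes, led by KRTAP2-1, KRT6C and KRT14. The 5 untested members over 3 counts whose groups overlapped were KRT39, KRT5, KRT9, KRTAP4-1 and KRT81, each with at most 8 counts in a library. KRT14 and KRT5, the main pair of basal keratinocytes, had 1 count in all libraries together and 0 to 6 counts per library.

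**Figure D4:**
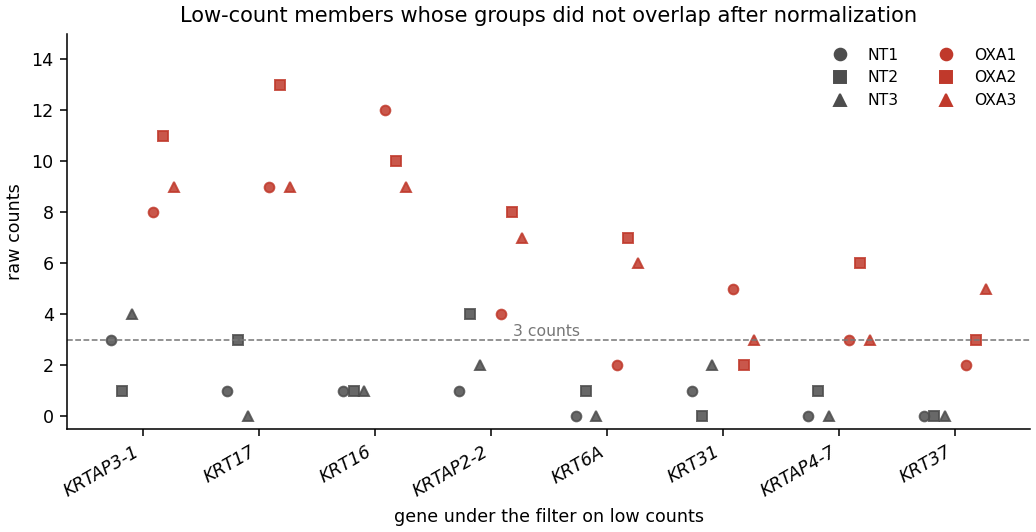
Raw counts in each library for the 8 members under the filter whose groups did not overlap after TMM normalization (grey, NT; red, OXA; dashed line, 3 counts). OXA libraries reach 13 counts at most (KRT17) and NT libraries 4 (KRTAP3-1 and KRTAP2-2).

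Position along the clusters was set beside the fold changes. The chromosome 12 cluster spans 783911 bases (chr12:52168996-52952906) and holds 27 members, and the chromosome 17 cluster spans 970178 bases (chr17:40654665-41624842) and holds 62. On chromosome 12 only the 2 genes at each end, KRT80 and KRT7 at one and KRT8 and KRT18 at the other, passed the filter. On chromosome 17 KRTAP2-3 lay inside the cluster, between KRT23 and KRT32 in the order of tested members. KRT32, KRT15 and KRT19, the last of them called with the block, lay toward the end with the higher coordinates, with KRT13 between KRT32 and KRT15, while KRT222, KRT10, KRT20 and KRT23 lay before KRTAP2-3. The 20 nearest tested protein-coding genes outside the clusters, 5 on each side, had a median log2 fold change of 0.11, against 0.023 over all genes tested. Of these, CDC6, a replication licensing factor and the farthest of the 5 genes before the chromosome 17 cluster, fell by 0.86 on the log2 scale (edgeR adjusted p = 0.00825), and none was called higher. Without OXA1 or OXA2 its edgeR adjusted p was 0.0566 or 0.0519. At an unadjusted p under 0.05, IGFBP6 was higher and CDC6 and SCN8A were lower by edgeR. DESeq2 and limma-voom each called 1 higher and 1 lower. The replicate block called 3 higher (IGFBP6, RARA and EIF1) and 5 lower (CDC6, SCN8A, EIF4B, TOP2A and SMARCE1). Over all genes tested it called 12.1% higher and 10.9% lower, against 2.78% and 2.29% by edgeR without the block. Such shares are not given for an unadjusted p, DESeq2 or limma-voom.

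**Figure D5:**
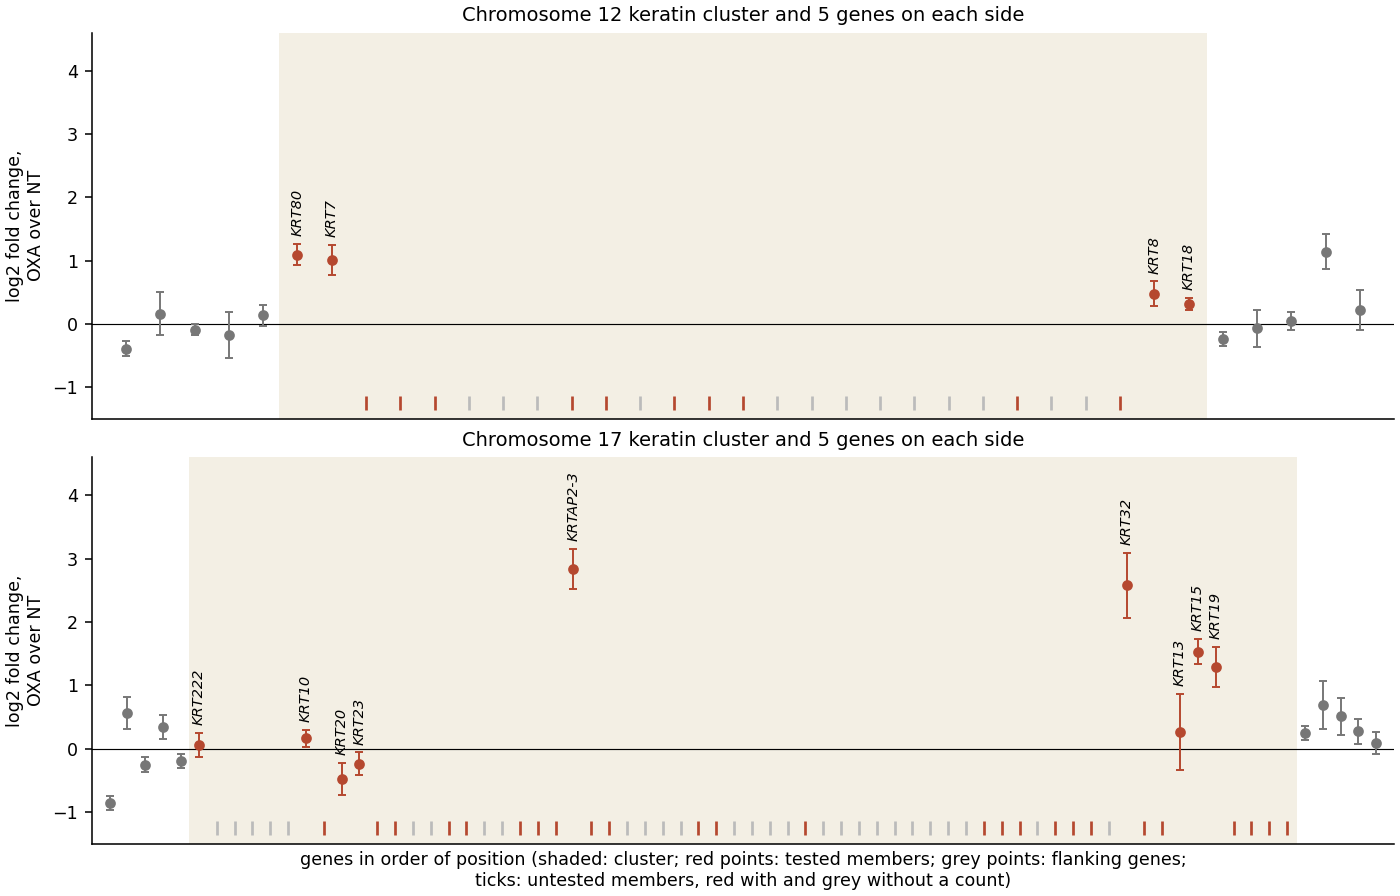
Log2 fold changes of OXA over NT with standard errors for tested members (red points) and for 5 flanking genes on each side (grey points), in order of position along chromosomes 12 (top) and 17 (bottom); the x axis is gene order, not distance, and ticks mark untested members with (red) or without (grey) a count. KRTAP2-3 and KRT32 stand highest, and KRT15 and KRT19 stand side by side.

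Genes that work with keratins were described from lists. Over all genes tested the median log2 fold change was 0.023. Of all genes tested, edgeR called 2.78% higher and 2.29% lower, and 12.1% and 10.9% with the replicate block. Such shares are not given for DESeq2, limma-voom or an unadjusted p. Of 18 genes of other intermediate filaments, 11 were tested, with a median log2 fold change of 0.18. SYNC, which encodes syncoilin, rose (from 53, 58 and 66 raw counts to 100, 106 and 130, 0.96 on the log2 scale, edgeR adjusted p = 0.0246), and NES, which encodes nestin, fell by 0.45 on the log2 scale (1749, 2004 and 2127 against 1282, 1372 and 1528, edgeR adjusted p = 0.0436). Neither gene's groups overlapped, and each passed in 1 of the 6 fits that left out a library, that without NT1, with edgeR adjusted p-values from 0.0739 to 0.189 in the other 5. The replicate block called 4 of the 11 higher (SYNC, DES, LMNA and IFFO2) and 3 lower (NES, SYNM and LMNB1). VIM, the main filament gene of mesenchymal cells, ranged from 174 to 303 raw counts across NT libraries and from 141 to 312 across OXA libraries (log2 fold change -0.041).

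Of 18 linkers and partners of keratin filaments (desmosomal plaque proteins, plakins and proteins that bind keratins), 17 were tested, with a median of 0.26, and edgeR called 0 in either direction. At an unadjusted p under 0.05, 3 were higher (SFN, FAM83H and DNAJB6) and 0 lower, DESeq2 called 1 higher and 0 lower, and limma-voom 0. The replicate block called PLEC, DNAJB6, SFN and FAM83H higher and DSP, the desmosomal anchor of keratin filaments, lower. Of 24 transcription factors that act on keratin genes or on epithelial differentiation, 17 were tested, with a median of 0.30. ELF3, an epithelial ETS factor, rose from 923, 1554 and 1622 raw counts to 2540, 2873 and 3246 (log2 fold change 1.12, edgeR adjusted p = 0.0210), again with NT1 lowest. Its edgeR adjusted p was 0.0715 to 0.0944 without any 1 of NT3, OXA1, OXA2 and OXA3. The replicate block called 3 of the 17 higher (ELF3, KLF4 and KLF5) and 4 lower (SP1, ETS2 and the epithelial grainyhead factors GRHL1 and GRHL2). Over all genes tested the block called 12.1% higher and 10.9% lower, and the lists are small.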

How the data were processed

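RNA-seq was carried out on poly(A) RNA of HCT116 cells, with 3 NT and 3 OXA libraries, paired reads and a stranded kit. The authors deposited 1 table that gives raw counts and normalized values of each library. The deposited raw counts are whole numbers, and the processing notes name Trimmomatic 0.32, STAR 2.7.5b, RSEM 1.3.3, DESeq2 2.13 and GRCh38 without roles, so that the counts may be rounded estimates. The deposited normalized values, read here as a signal, are the raw count times a factor that the authors let differ between genes and libraries. They were used only for an alternative. How reads shared by near-identical genes were counted is not given in the sources used here.

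Raw counts were filtered with filterByExpr (minimum count 10, minimum total 15), which left 13727 genes, scaled by TMM and tested with edgeR's quasi-likelihood test at its defaults. P-values were adjusted by Benjamini and Hochberg's method across these genes. R 4.3.3 was used with DESeq2 1.42.0, limma 3.58.1 and edgeR 4.0.16. Standard errors were obtained from each estimate and its F statistic. Single values per library were compared by exact permutation tests. The steps were tested on simulated data. A floor of 3 counts per library was taken as the detection limit. Depth, as total counts per library, differed by less than 1.5 times. Positions and transcript lengths came from GENCODE release 44 on GRCh38, and promoters from RefSeq on GRCh38.p14.

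Replicate numbers come from the sample titles, and no source says what a number stands for. The deviations of same-numbered libraries from their group means correlated by 0.51, 0.50 and 0.28 over genes, against -0.44 to 0.083 for different numbers, all over the limit of 0.1, so the numbers were taken to pair the samples. The fit without the block, as in the study's pairwise test, is the main one, and the blocked value stands beside each result it changes.

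The members and gene lists were chosen with earlier results of these data known. Full values were given for members that passed in either fit, for KRT15 and KRT19, and for members averaging 1000 or more normalized counts. List genes were named where they passed in the fit without the block. Other list genes, VIM among them, were named after their values were seen, and so were KRT20, KRT13 and the trace-level genes whose groups overlapped. Alternatives were other factors, filters and tools, the authors' factors, a fold change over 1.5, the replicate block, each library left out in turn and, added after the data were seen, the block with the authors' factors.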

Additional observations from a re-analysis of the deposited data

How the results depend on the processing

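With 3 keratin genes called higher in the main test, the count was 5 with no filter on low counts, 7 with the replicate block and 6 with the block and the authors' gene-specific factors, and 0 to 5 when 1 library was left out. It was 0 without OXA2 or OXA3, 1 without NT2, NT3 or OXA1 and 5 without NT1. By DESeq2 the count was 4, and with a minimum count of 30 it was 2, as KRT32 was then under the filter. Of all genes tested, edgeR called 2.78% higher and 2.29% lower in the main test, and 12.1% and 10.9% with the replicate block. Such shares are not given for the other alternatives, so nothing is read from changes in the counts of this paragraph. KRTAP2-3 was called in every alternative. Other intermediate filament genes, 1 higher and 1 lower in the main test, gave 2 lower with library size only and with no filter, 3 higher and 2 lower by DESeq2, 4 higher and 3 lower with the replicate block, 0 and 0 with the authors' factors, 0 lower where a fold change over 1.5 was required, and 0 to 1 higher and 0 to 2 lower when 1 library was left out. Linkers and partners, at 0, gave 1 higher with no filter and by DESeq2, 4 higher and 1 lower with the block, and 0 to 2 higher when 1 library was left out. Regulators, 1 higher and 0 lower, gave 1 lower with library size only and with the authors' factors, 2 lower by DESeq2, 3 higher and 4 lower with the block, and 0 to 1 higher when 1 library was left out. Flanking genes, 0 higher and 1 lower, gave 1 higher with no filter, by DESeq2 and by limma-voom, 3 higher and 5 lower with the block, and 0 to 1 in either direction when 1 library was left out.

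KRT13, at 0.26 on the log2 scale, ranged from -0.22 (without NT1) to 0.62 when 1 library was left out. KRT222, at 0.055, ranged from -0.13 to 0.17 when 1 library was left out (-0.10 without NT2, -0.13 without OXA3) and was -0.041 with the authors' factors and -0.048 when the replicate block was added to them. The cause of these changes was not tested. Over 17 named genes and their alternatives, 268 values in all, 30 lost the call, 11 gained it, 5 changed sign, and the others kept both direction and side of the threshold. The replicate block changed no other call of a named gene than those given beside the results. The summed keratin level, the type I to type II ratio and the KRT19 share kept their sign in every alternative, but 3 against 3 libraries cannot reach an exact p under 0.1. Depth limits the members under the filter, where 1 to 13 counts decide a value, and KRT32 and KRT13 in NT1.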
